A study of Mus musculus with 18 samples.

Results

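The 3 iodothyronine deiodinases (Dio1, Dio2 and Dio3) and 5 genes long used as readouts of triiodothyronine (T3) action (Hr, Klf9, Thrsp, Me1 and Gpd2) were examined by RNA-Seq in the hypothalamus, pituitary and thyroid of WT and THRB K146Q mice. The 8 genes were chosen by symbol, out of 24054 genes in each tissue table, and all 8 were found in all 3 tables. There were 18 libraries in 6 groups of 3, and each tissue carried the same mouse numbers, 1, 2 and 43 for WT mice and 60, 62 and 83 for K146Q mice. All mice were untreated males of strain C57BL/Ntac at 3 months of age. The K146Q mice were homozygous for a whole-body knock-in that turns a lysine of thyroid hormone receptor beta (THRB), a SUMO attachment site shared by its isoforms, into glutamine, so every tissue carried the change, and the hypothalamus and pituitary that set the hormone supply of the thyroid carried it too. The WT mice had no engineered allele.

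Thyroid hormone leaves the thyroid mainly as thyroxine (T4), which acts weakly until an iodine is removed from its outer ring to give T3. The deiodinases are selenoenzymes that make or destroy T3 inside cells. DIO2 activates T4 in pituitary, brain and brown fat, DIO3 removes an inner-ring iodine and inactivates both hormones, and DIO1, abundant in liver, kidney and thyroid, can do both. T3 binds the receptors THRA and THRB on DNA, and in many tissues it raises Dio1, Dio3, Hr, Klf9, Thrsp, Me1 and Gpd2 and lowers Dio2 and the genes of thyrotropin (TSH).

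Library sizes were 14902330 to 18419977 reads for hypothalamus. They were 16468854 to 20339233 for pituitary and 18611998 to 21230050 for thyroid. Values are given as the deposited normalized signal, which is close to CPM (reads scaled to a common library size), and 3 reads corresponded to a signal between 0.133 and 0.190 depending on the library. Defining markers were highest in the labelled tissues. The thyroid marker Tg lay between 83869 and 357296 in thyroid and at no more than 169.7 elsewhere. Gh lay between 62503 and 213048 in pituitary, and the summed neuronal markers between 2648 and 2956 in hypothalamus. Gh was also at 81.9 to 113 in hypothalamus and at 72.1 to 125 in thyroid, apart from 365 in thyroid WT mouse 1. The source of the Tg and Gh signal outside their own tissues was not tested. The mutation changes a codon and leaves the Thrb transcript in place. Its signal therefore does not check the genotype labels. In hypothalamus Thrb averaged 27.9 ± 0.914 for the WT mice and 27.6 ± 2.08 for the K146Q mice (SD, n = 3 each). In pituitary it was higher in K146Q mice (103 ± 4.35 against 162 ± 20.9, SD, n = 3) and in thyroid it was lower (15.6 ± 0.679 against 5.94 ± 1.13, SD, n = 3), both past the threshold by limma (adjusted p = 0.00285 and 0.000621).

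Differences between genotypes were tested within each tissue by limma on log2(signal + 0.5), a scale on which changes of weakly expressed genes come out too small. Genes with a signal of at least 0.5 in at least 3 of the 6 libraries were tested, and p-values were adjusted by Benjamini-Hochberg over all of them, with a threshold of 0.05. This filter kept 6 of the 8 genes in hypothalamus, 7 in pituitary and 8 in thyroid. Dio1 and Dio3 in hypothalamus and Dio3 in pituitary fell below it.

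The stretches before the transcription starts of 7 of the 8 genes were taken from RefSeq (GRCm38.p6), and the gene with no entry was Hr. Those of Dio2, which had the largest rise of the 8 genes, and Klf9, which fell with a small spread between mice, are shown. Both lie wholly outside the GENCODE models of their own genes. Those of Thrsp, Dio3, Me1 and Gpd2 lie partly or wholly inside their own models and are described by their motifs only. The Dio2 stretch lies inside the model of another gene, the noncoding Gm26512 on the plus strand (90738201 to 90869235). Each stretch shown is the 250 bases before the start, read 5′ to 3′ on the strand of the gene, chr12:90739039-90739288 on the minus strand for Dio2 and chr19:23140976-23141225 on the plus strand for Klf9. Capitals mark a cAMP response element (TGACGTCA), a TATA box (TATAAA) or a CCAAT box (CCAAT, or ATTGG on the other strand).
Dio2: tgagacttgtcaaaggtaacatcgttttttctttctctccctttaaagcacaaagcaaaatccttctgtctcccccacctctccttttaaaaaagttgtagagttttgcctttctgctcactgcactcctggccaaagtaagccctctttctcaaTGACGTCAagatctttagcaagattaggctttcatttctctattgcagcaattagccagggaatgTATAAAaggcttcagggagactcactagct
Klf9: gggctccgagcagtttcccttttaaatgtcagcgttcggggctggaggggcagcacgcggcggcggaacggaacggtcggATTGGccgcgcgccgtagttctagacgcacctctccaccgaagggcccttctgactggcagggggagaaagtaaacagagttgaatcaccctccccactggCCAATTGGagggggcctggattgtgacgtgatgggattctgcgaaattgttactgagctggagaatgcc

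The Dio2 stretch held 1 cAMP response element, beginning 95 bases before the start, and 1 TATA box, beginning 30 bases before it. The Klf9 stretch held 3 CCAAT boxes, of which those on opposite strands 69 and 66 bases before the start overlap. Over 32544 stretches of the same length, with both strands searched, the cAMP response element occurred in 1.55%, the TATA box in 12.3% and the CCAAT box in 33.8%. The half-site AGGTCA of thyroid hormone receptors occurred in 14.0% of these stretches, and 2 of them in direct repeat with a gap of 4 bases (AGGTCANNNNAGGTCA) in 0.0154%. Neither was found in the stretches of the 7 genes, which says only that these letters are absent from these windows. In the windows that reach into the model of their own gene, Dio3 had a TATA box and 2 CCAAT boxes, Thrsp had 2 CCAAT boxes, Me1 had 1 CCAAT box in its second window, which is inside the gene, and Gpd2 had no match. Dio1 had none either.

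**Figure D1:**
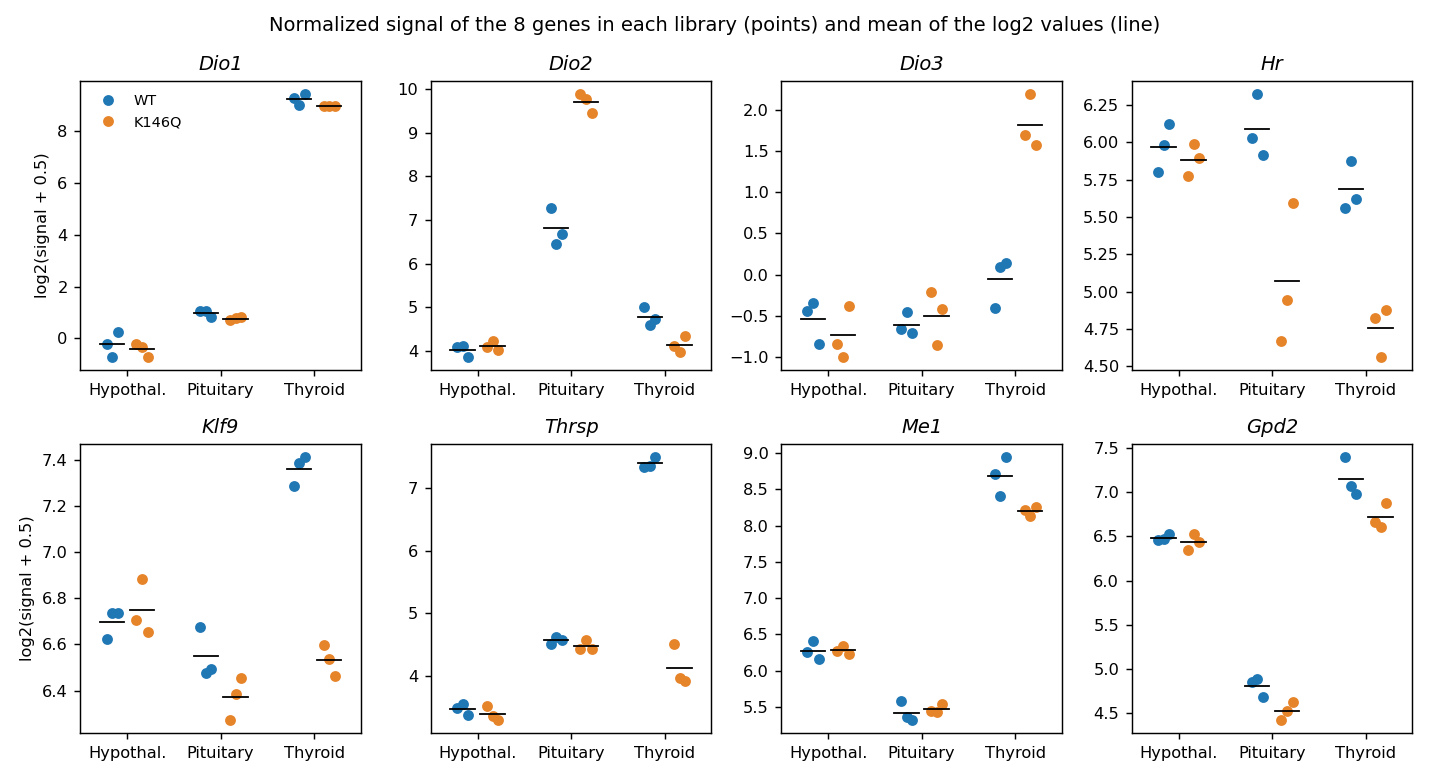
Each panel plots 1 gene, with log2(signal + 0.5) on a linear vertical axis and the 3 tissues on the horizontal axis. Blue points are the 3 WT libraries, orange points the 3 K146Q libraries, and each line is the mean of the log2 values. The orange Dio2 points in pituitary (signal 704 to 944) stand above all others of that gene, and the orange Thrsp points in thyroid (14.6 to 22.3) far below the blue (162 to 181).

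In WT mice the 8 genes differed in level between tissues, which was tested by limma on all 18 libraries with 6 group means. Over the 18 libraries the geometric mean of the total signal was 1000001, as it is when libraries are scaled together, so levels were compared across the 3 tables. Among the members, 5 of 8 differed between WT pituitary and WT hypothalamus, against 73% of the 17140 genes tested. Between WT thyroid and WT hypothalamus it was 6 of 8 against 81.9%, and between WT thyroid and WT pituitary 8 of 8 against 75.6%. These shares are close to the backgrounds or rest on so few genes that nothing particular to the 8 can be read from them.

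Dio1 was a thyroid gene in these animals. Its WT signal was 620, 516 and 691 in thyroid, while pituitary had 1.60, 1.60 and 1.25. The WT hypothalamus had 0.358, 0.116 and 0.696, which rested on 2 to 12 reads. The log2 level in thyroid exceeded that in pituitary by 8.26 and that in hypothalamus by 9.46 (limma, adjusted p = 3.08e-16 and 2.05e-17). Dio2 was highest in pituitary, with 156, 87.6 and 103, against 31.5, 23.7 and 25.9 in thyroid and 16.5, 16.8 and 14.0 in hypothalamus. All 3 steps of that order passed the test, and the smallest of them, thyroid over hypothalamus, was 0.75 (limma, adjusted p = 0.000612). Dio3 was near the limit of detection in the WT animals, with 1 to 5 reads per library in hypothalamus, 2 to 4 in pituitary and 4 to 10 in thyroid. At this depth its order between tissues could not be set. The thyroid minus pituitary difference of 0.55 just passed (limma, adjusted p = 0.0385), and it did not pass with the mouse number as a block (adjusted p = 0.0568), under pseudocounts of 0.1 or 1, under totals without the 10 highest genes, or without WT mouse 2 (0.108) or 43 (0.218).

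Thrsp, which encodes a nuclear protein of fat-making tissues, rose in WT mice from hypothalamus (10.6, 11.2 and 9.86) to pituitary (22.2, 24.0 and 23.3) and thyroid (162, 164 and 181), and each step passed the test (adjusted p at most 3.06e-07 by limma). Me1, the cytosolic malic enzyme that supplies NADPH, was also highest in thyroid (418, 341 and 493), but its lowest level was in pituitary (47.7, 40.6 and 39.6), below hypothalamus (75.7, 84.3 and 71.0). Gpd2, the mitochondrial enzyme of the glycerol-3-phosphate shuttle, followed the same order, with 168, 134 and 125 in thyroid, 87.7, 88.4 and 91.7 in hypothalamus and 28.5, 29.1 and 25.2 in pituitary. Klf9, a zinc finger transcription factor, was highest in thyroid (155, 167 and 170), while hypothalamus (98.0, 106 and 106) and pituitary (102, 88.5 and 89.7) did not differ beyond the threshold (difference -0.15, limma adjusted p = 0.0824). That last difference changed sign under quantile normalization (0.10) and under totals without the 10 highest genes (0.13), while it passed under median-of-ratios rescaling (-0.22, limma adjusted p = 0.0143) and without WT mouse 1 (-0.25, adjusted p = 0.0161).

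Hr, which encodes a corepressor of nuclear receptors, was the most even of the 8 genes over WT tissues. Hypothalamus held 55.2, 62.8 and 69.2, pituitary 65.0, 79.6 and 59.8 and thyroid 46.7, 58.2 and 48.8, and these ranges overlapped between pituitary and hypothalamus and between hypothalamus and thyroid. Of its 3 differences only thyroid minus pituitary passed (-0.40, adjusted p = 0.0479 by limma), and it was lost with no filter, with no variance trend, or without WT mouse 1, 2 or 43, or K146Q mouse 62 (adjusted p = 0.0627 to 0.161).

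Levels of different genes were compared per kilobase of exonic length (GENCODE M21, GRCm38). In WT thyroid the mean signal per kilobase ran from 309 for Dio1 through 108 for Me1, 77.2 for Thrsp, 34.1 for Klf9, 21.8 for Gpd2, 7.40 for Hr and 4.65 for Dio2 down to 0.234 for Dio3. No neighbours in that order overlapped between libraries. In WT pituitary Dio2 (19.8 per kilobase) and Klf9 (19.4) led and overlapped each other. In K146Q pituitary Dio2 reached 145 per kilobase, above Klf9 at 17.1, and in K146Q thyroid Thrsp dropped from the third place to the fifth, at 7.91 per kilobase.

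In the hypothalamus none of the 6 genes tested differed between genotypes by limma, and 0 of 15761 genes (0%) did. At an unadjusted p under 0.05 there were 645 genes, edgeR called 0 genes and DESeq2 called 9, of which none was among the 8. None of the 6 had groups that did not overlap, against 9.15% of all genes tested. The differences were small and their intervals narrow. Dio2 was at 16.5, 16.8 and 14.0 in WT and 16.7, 18.3 and 15.8 in K146Q mice, a log2 difference of 0.10 (95% confidence interval -0.11 to 0.30, adjusted p = 0.998 by limma). Klf9 was at 98.0, 106 and 106 in WT and 104, 118 and 100 in K146Q mice (0.05, interval -0.09 to 0.19).

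Hr was at 55.2, 62.8 and 69.2 in WT and 54.3, 62.9 and 58.9 in K146Q hypothalamus, with overlap (-0.08, interval -0.27 to 0.10). In K146Q hypothalamus Thrsp was at 10.9, 9.71 and 9.31 (-0.08, interval -0.30 to 0.14). Me1 was at 76.9, 80.8 and 74.9 there (0.01, interval -0.13 to 0.15) and Gpd2 at 81.1, 92.1 and 86.5 (-0.05, interval -0.16 to 0.07), all overlapping the WT values given above. Across the 6 genes, the intervals lay between -0.30 and 0.30 on the log2 scale. Dio1 (2 to 12 reads per library in all 6 libraries) and Dio3 (0 to 5 reads) were too low for a comparison: a change in either was not detectable at this depth.

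In the pituitary, 2 of the 7 genes tested changed by limma, Dio2 upward and Hr downward, where 9.86% of 15589 genes changed, 6.36% higher and 3.5% lower in K146Q mice. Groups that did not overlap were found for 4 of the 7 genes, against 31% of all genes tested. Scaling decided the balance of directions over all genes: 991 rose and 546 fell as deposited, and 841 rose and 885 fell with totals taken without the 10 highest genes. Dio2 and Hr passed under both.

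Dio2 had the largest rise of the 8 genes. The WT pituitaries held 156, 87.6 and 103 and the K146Q pituitaries 944, 877 and 704, so the lowest K146Q value was above the highest WT value. The mean rose 7.30-fold (log2 difference 2.90, standard error 0.19, adjusted p = 5.79e-05 by limma). Across the other settings it stayed between 2.77 and 2.90 and passed in each, and with 1 mouse left out at a time it lay between 2.72 and 3.13.

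Markers of the thyrotroph, the TSH cell of the pituitary, were higher in the same animals. The summed signal of Tshb, Cga and Trhr was 3892, 3398 and 4609 in WT mice 1, 2 and 43 and 28977, 26593 and 21859 in K146Q mice 60, 62 and 83, and all 3 markers passed the test. Within the K146Q group Dio2 and the marker sum had the same order, mouse 60 highest and mouse 83 lowest. Within the WT group they did not, since mouse 1 had the highest Dio2 and mouse 43 the highest sum. Immune cell markers were also higher, with 2 of 3 tested passing and sums of 37.0 to 43.6 in WT and 61.7 to 94.1 in K146Q pituitaries, and 2 of 6 markers of the other anterior pituitary cells were lower. Neuronal marker sums were 531 to 592 in WT and 767 to 834 in K146Q pituitaries, with 2 of 4 markers higher and 1 lower, and endothelial sums were 209 to 221 and 238 to 243, with 1 of 4 higher. Of 3 markers of C cells and parathyroid tested, 1 was higher. Over all pituitary genes tested 6.36% were higher and 3.5% lower. In bulk tissue, more cells of a type and more RNA per cell cannot be told apart, and the part of any of these markers in the Dio2 result was not tested.

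**Figure D2:**
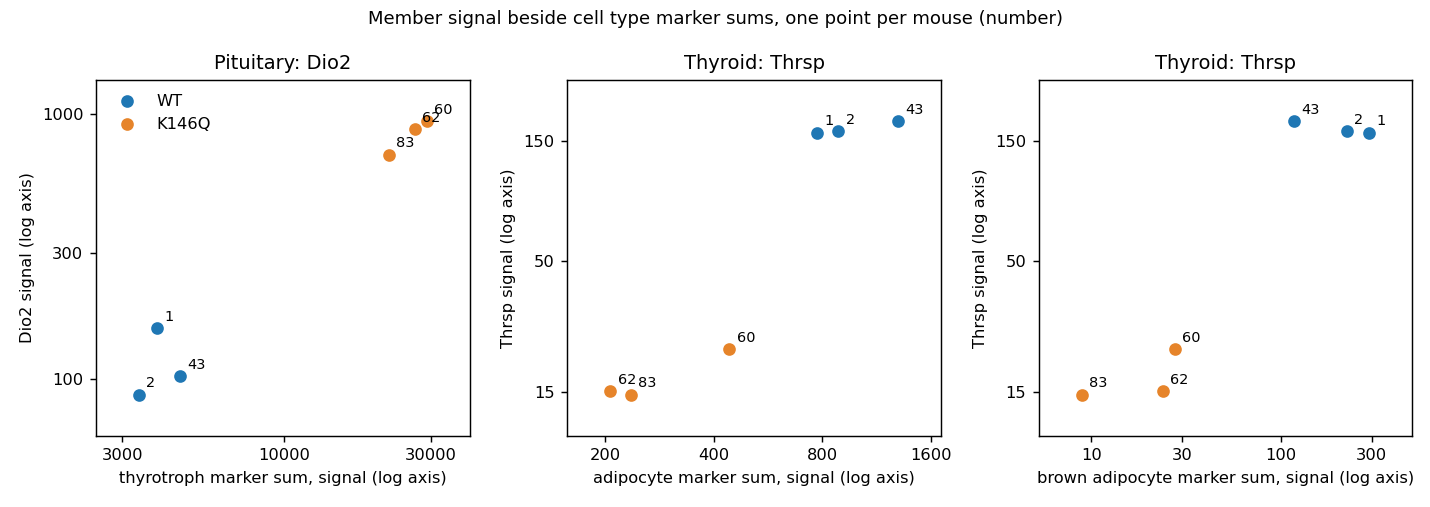
Each point is 1 mouse, marked with its number, blue for WT and orange for K146Q, and both axes are logarithmic. The left panel sets pituitary Dio2 signal against the sum of 3 thyrotroph markers, and the middle and right panels set thyroid Thrsp signal against the sums of 6 adipocyte and 5 brown adipocyte markers. In every panel the genotypes form separate groups on both axes, with K146Q mice at Dio2 704 to 944 and Thrsp 14.6 to 22.3.

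Hr fell in the pituitary. Its signal was 65.0, 79.6 and 59.8 in WT and 24.9, 30.3 and 47.8 in K146Q mice, with all K146Q values below all WT values and mouse 83 nearest to the WT range. The mean was 49.6% lower (log2 difference -1.02, standard error 0.21), with an adjusted p of 0.0139 by limma. That call was lost when WT mouse 2 (adjusted p = 0.0558), K146Q mouse 60 (0.0518) or K146Q mouse 62 (0.0568) was left out. Over all 6 omissions the difference lay between -1.28, without K146Q mouse 83, and -0.82. Mouse 83 also had the lowest Dio2 and the lowest thyrotroph sum of the K146Q mice.

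None of the other T3-raised genes passed in pituitary. Klf9 went from 102, 88.5 and 89.7 in WT to 76.9, 83 and 87.2 in K146Q mice, which did not overlap but missed the threshold (-0.18, 95% confidence interval -0.36 to 0.01, adjusted p = 0.219 by limma). Gpd2 was likewise apart, at 28.5, 29.1 and 25.2 against 21.0, 22.5 and 24.1 (-0.29, interval -0.51 to -0.07), and its adjusted p of 0.101 by limma also missed. For Thrsp the values were 22.2, 24.0 and 23.3 against 20.9, 23.4 and 21.1 (-0.09, interval -0.29 to 0.12). Me1 overlapped as well, at 47.7, 40.6 and 39.6 against 43.1, 42.7 and 46.1 (0.05, interval -0.16 to 0.26, and -0.01 with totals without the 10 highest genes).

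The low deiodinases gave no call in pituitary. Dio1, at 22 to 36 reads per library, had a signal of 1.60, 1.60 and 1.25 in WT and 1.14, 1.23 and 1.25 in K146Q mice (-0.22, interval -0.61 to 0.18, adjusted p = 0.496 by limma). Dio3 had 3, 4 and 2 reads in WT and 7, 1 and 5 in K146Q pituitaries, and a difference was not detectable at this depth.

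In the thyroid, 7 of the 8 genes changed by limma, 6 lower and 1 higher in K146Q mice. Over the 15200 genes tested 37.8% changed, 18.1% lower and 19.7% higher. For all 8 genes the groups did not overlap, 7 lower and 1 higher, against 52.3% of all genes tested. With totals taken without the 10 highest genes, the median of all thyroid genes moved from -0.03 to -0.12 and the balance from 2992 higher and 2747 lower to 2502 higher and 3629 lower. Relative to the median of each scaling the member that moved most was Dio3, from 1.90 to 1.98, and no member turned direction.

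**Figure D3:**
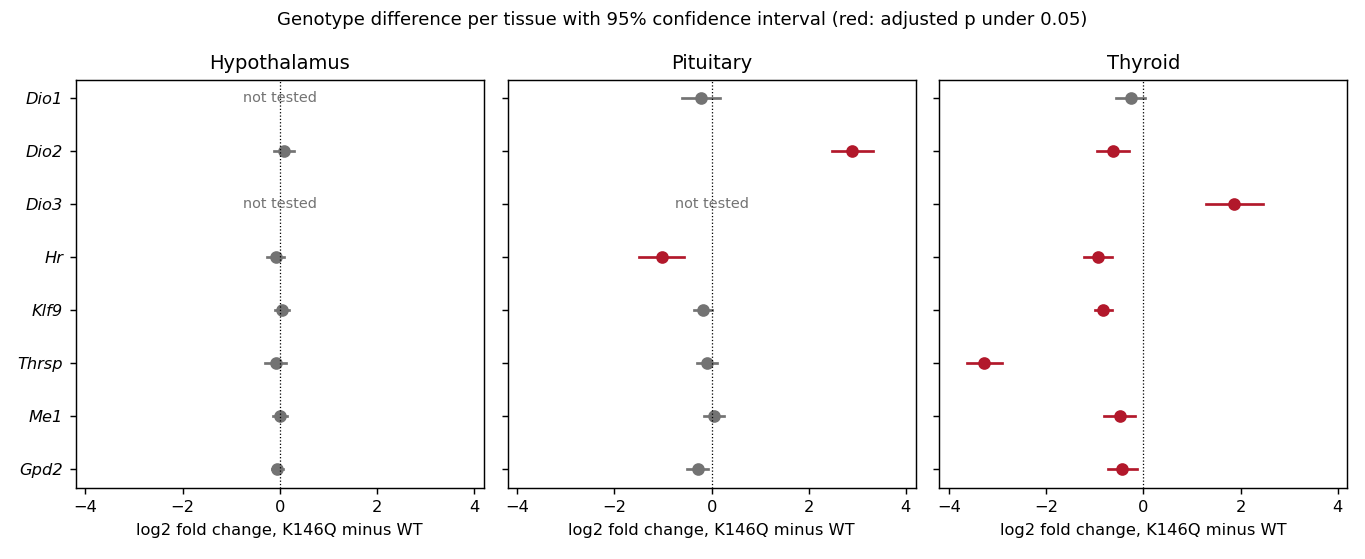
The horizontal axes give the log2 difference, K146Q minus WT, of each gene in each tissue, with points for the estimate, lines for its 95% confidence interval, red for an adjusted p under 0.05 and grey otherwise. In hypothalamus all 6 intervals include 0, in pituitary Dio2 (2.90) and Hr (-1.02) are red, and in thyroid all but Dio1 are red, with Thrsp at -3.27 and Dio3 at 1.87.

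Thrsp had the largest fall of the 8 genes. Its thyroid signal was 162, 164 and 181 in WT and 22.3, 15.1 and 14.6 in K146Q mice, and the low group still held 249 to 449 reads per library. The mean was 9.76-fold lower (log2 difference -3.27, standard error 0.16, adjusted p = 2.16e-05 by limma). No other setting and no mouse left out moved the difference outside -3.46 to -3.17 or ended the call. The K146Q thyroid level was close to that of the pituitary in either genotype (20.9 to 24.0).

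Fat markers fell in the same thyroid libraries. The summed signal of 6 adipocyte markers was 772, 886 and 1295 in WT mice 1, 2 and 43 and 442, 207 and 236 in K146Q mice 60, 62 and 83. Of the 6 markers 5 passed the test, all lower, where 18.1% of all genes were lower. For 5 brown adipocyte markers the sums were 292, 223 and 117 against 27.5, 23.9 and 8.91, and 4 of the 5 passed, all lower. Among K146Q mice the one with the highest adipocyte sum, mouse 60, also had the highest Thrsp. Among WT mice Thrsp was highest in mouse 43, which had the highest adipocyte sum and the lowest brown adipocyte sum. Thrsp and Me1 are expressed in fat, and the part of these markers in the thyroid result was not tested. In hypothalamus the adipocyte sums were at or below 0.580 while Thrsp was at 9.31 to 11.2, and in pituitary they were 3.60 to 6.27 in WT and 7.998 to 8.32 in K146Q mice, where 1 marker could be tested and was higher (Fabp4, 0.81, limma adjusted p = 0.0228) and Lep was at 0 in all libraries. The brown adipocyte sums were 9.73 to 11.2 in hypothalamus and, with overlap of the genotypes and Elovl3 at 0, 23.0 to 37.1 in pituitary.

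Other markers also differed between thyroid libraries, where 37.8% of all genes passed. Immune markers were higher in K146Q mice, with sums of 75.4 to 100.54 in WT and 182 to 191 in K146Q mice and 3 of 4 passing. Endothelial sums were 504 to 601 in WT and 657 to 745 in K146Q mice, with 2 of 4 markers higher. Of 4 astrocyte and tanycyte markers tested 2 were lower, and of 4 neuronal markers 1 was higher and 1 lower. Of 6 follicular cell markers 1 passed, Duox2, which was lower (-0.95). Tg, the most abundant of them, averaged 333547 ± 34931 in WT and 103501 ± 24116 in K146Q mice (SD, n = 3), and its groups did not overlap (293439 to 357296 against 83869 to 130421). It did not pass by limma (-1.71, standard error 5.14, adjusted p = 0.820). That standard error, from the fit with a variance trend, is far wider than the spread between these mice, so the missed call does not show that Tg was unchanged. Among the others Duoxa2 (0.40), Slc26a4 (0.31) and Slc5a5 (0.29) had positive and Iyd (-0.22) a negative difference. Of 5 markers of C cells and parathyroid, 4 were lower and 1 higher. Skeletal muscle sums varied within both groups, at 273, 3885 and 5663 in WT mice 1, 2 and 43 and 3404, 740.1 and 600.1 in K146Q mice 60, 62 and 83, and none of 5 muscle markers passed. Their part in the results of the 8 genes was not tested.

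Me1, which supplies NADPH to lipid synthesis, also fell, with a smaller log2 difference than Thrsp. It was at 418, 341 and 493 in WT and 296, 281 and 304 in K146Q thyroids, a mean 29.6% lower (log2 difference -0.49, standard error 0.14, adjusted p = 0.0268 by limma). Its call held in only 1 of the 6 fits with a mouse left out, that without WT mouse 2. Without WT mouse 1 or 43 or K146Q mouse 60, 62 or 83 the adjusted p was 0.0554 to 0.10 (limma), with the difference between -0.51 and -0.36.

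Among 10 other genes of lipid synthesis and NADPH supply, 6 fell and 1 rose in thyroid, against 18.1% lower and 19.7% higher over all genes. Their median was -0.88 where the median of all genes was -0.03. The largest falls were those of Scd1, a fatty acid desaturase (-4.02), Acss2, which activates acetate (-2.71), and Mlxipl, a glucose-sensing transcription factor (-2.24). Elovl6, a fatty acid elongase, rose by 1.56 (limma, adjusted p = 0.00104). In pituitary 2 of the 10 changed, both lower, against 3.5% of all genes lower, and these were Mlxipl (-0.99) and Scd1 (-0.62).

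Klf9 and Hr both fell in thyroid. Klf9 was at 155, 167 and 170 in WT and 96.4, 92.4 and 87.8 in K146Q mice, a mean 43.8% lower (log2 difference -0.83, standard error 0.08, adjusted p = 0.000257 by limma), the smallest standard error of the 8 genes in thyroid. Hr was at 46.7, 58.2 and 48.8 against 27.8, 23.1 and 28.9, a mean 48.1% lower (-0.93, standard error 0.12, adjusted p = 0.00114). Both calls held in every other setting and with each mouse left out. In K146Q thyroid Klf9 thus reached the level of the pituitary (76.9 to 102), from above it in WT.

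Gpd2 was at 168, 134 and 125 in WT and 100.9, 97.0 and 117 in K146Q thyroids, so the groups were separated by a narrow gap. Its mean was 26.4% lower (log2 difference -0.43, standard error 0.13, limma adjusted p = 0.0319). This call was lost without the variance trend (adjusted p = 0.0569) and without WT mouse 1 (0.0777), K146Q mouse 60 (0.0879) or K146Q mouse 62 (0.119). Of the 4 genes of the glycerol-3-phosphate shuttle, Gpd2 included, 2 fell, against 18.1% of all thyroid genes. The other was Gpd1, its cytosolic dehydrogenase (-1.35, adjusted p = 0.00107 by limma).

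The 3 deiodinases did not share a direction in thyroid. Dio2, which rose in pituitary, was lower here, at 31.5, 23.7 and 25.9 in WT and 17.0, 15.2 and 19.8 in K146Q mice, a mean 36.0% lower (log2 difference -0.63, standard error 0.14, adjusted p = 0.0117 by limma). It kept its call with each mouse left out other than K146Q mouse 62 (adjusted p = 0.0505). Dio3, the inactivating enzyme, rose from 0.253, 0.569 and 0.601 in WT to 2.73, 4.05 and 2.46 in K146Q mice, which is 4, 9 and 10 reads against 55, 69 and 42. Its mean was 6.49-fold higher (log2 difference 1.87, standard error 0.25, adjusted p = 0.00126 by limma). The difference depended on the pseudocount, being 1.46 with 1 and 2.502 with 0.1, and it was 2.70 by DESeq2. It passed in all settings in which the gene was tested. Only 2 of the 3 WT libraries reached the filter's signal of 0.5, so the gene entered the test through its K146Q libraries, and with at least 1 CPM required in every library it was left out.

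Dio1, by far the most abundant deiodinase, did not pass. Its thyroid signal was 620, 516 and 691 in WT and 504, 503 and 500 in K146Q mice, without overlap and with a very even K146Q group (SD 2.09 against 88.4 in WT). The mean was 17.5% lower (log2 difference -0.27, 95% confidence interval -0.56 to 0.03, adjusted p = 0.135 by limma). It passed under quantile normalization (-0.52, adjusted p = 0.00372), with totals without the 10 highest genes (-0.36, adjusted p = 0.0311) and without WT mouse 2 (-0.38, adjusted p = 0.0239). For each of the members whose genotypes did not overlap in a tissue, the exact two-sided permutation test gave p = 0.1, the smallest that 3 mice against 3 allow.

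Genes around the deiodinases were counted by list, against the shares of all genes called, 37.8% in thyroid and 9.86% in pituitary. Of 7 genes for selenoprotein synthesis, 1 changed in thyroid, Sephs2, which makes the selenium donor (0.37, adjusted p = 0.0240 by limma), and none in pituitary. Of the enzymes that add or remove ubiquitin on DIO2, 2 of 6 changed in thyroid, Wsb1 upward (0.47) and March6 downward (-0.41). Both are known to promote DIO2 breakdown. In pituitary none of 5 changed. March6 was not found by symbol in pituitary or hypothalamus, where 27 symbols had become dates, so its change could not be compared there. Dio3 lies in the imprinted Dlk1-Dio3 region. Among its neighbours 2 of 4 tested fell in thyroid, the noncoding Meg3 (-0.91) and Rian (-0.43), and 2 of 5 rose in pituitary, Dlk1 (1.54) and Rtl1 (0.60). In thyroid Dio3 thus went against these noncoding neighbours, while Dlk1 did not pass (-0.61, adjusted p = 0.506 by limma) and Rtl1 fell below the filter. The antisense gene Dio3os, beside Dio3, did not pass in thyroid (0.727 ± 0.246 against 1.02 ± 0.156, SD, n = 3, log2 difference 0.32, adjusted p = 0.290 by limma), and it was below the filter in the other tissues.

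Of 22 further genes known to rise with T3 in at least 1 tissue, 18 could be tested in thyroid, where 8 fell and 2 rose (median -0.62), against 18.1% lower and 19.7% higher over all genes. The largest falls were those of Ucp1, the uncoupling protein of brown fat (-4.47), Pck1, a gluconeogenic enzyme also used in fat (-2.91), and Slc2a4, the insulin-regulated glucose transporter (-1.84). Bcl3, which encodes a nuclear regulator of NF-kB, rose by 1.27. Ucp1 is also on the brown adipocyte list, and Acaca and Fasn are on the lipid synthesis list. In pituitary 1 of 16 changed, Camk4 upward (0.83), against 9.86% of all genes, and in hypothalamus 0 of 18.

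The receptors and the proteins that carry the hormone were described in the same way. Of 12 receptor and cofactor genes, 4 changed in thyroid, a share close to the 37.8% of all genes, and all 4 fell, led by Thrb (-1.33), Rxrg (-1.14) and Thra (-0.46). In pituitary 2 rose, Thrb (0.65) and Rxrg (0.45), and 1 fell, where 9.86% of all genes changed. Of the 8 transport and binding genes tested in pituitary 4 rose, against 6.36% of all genes. They were led by Ttr (2.56), which binds thyroxine, and Slc7a8, an amino acid and hormone transporter (1.39). In thyroid 2 of 8 rose, including Crym, a cytosolic T3-binding protein (1.69), and 3 fell, led by the transporters Slc16a10 (-1.24) and Slco2b1 (-1.22). The WT thyroid signal of Crym was below the filter, so the gene entered the test through its K146Q libraries. Without that rise it would not have been tested. Over all thyroid genes 19.7% rose and 18.1% fell. None of these lists had a call in hypothalamus.

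**Figure D4:**
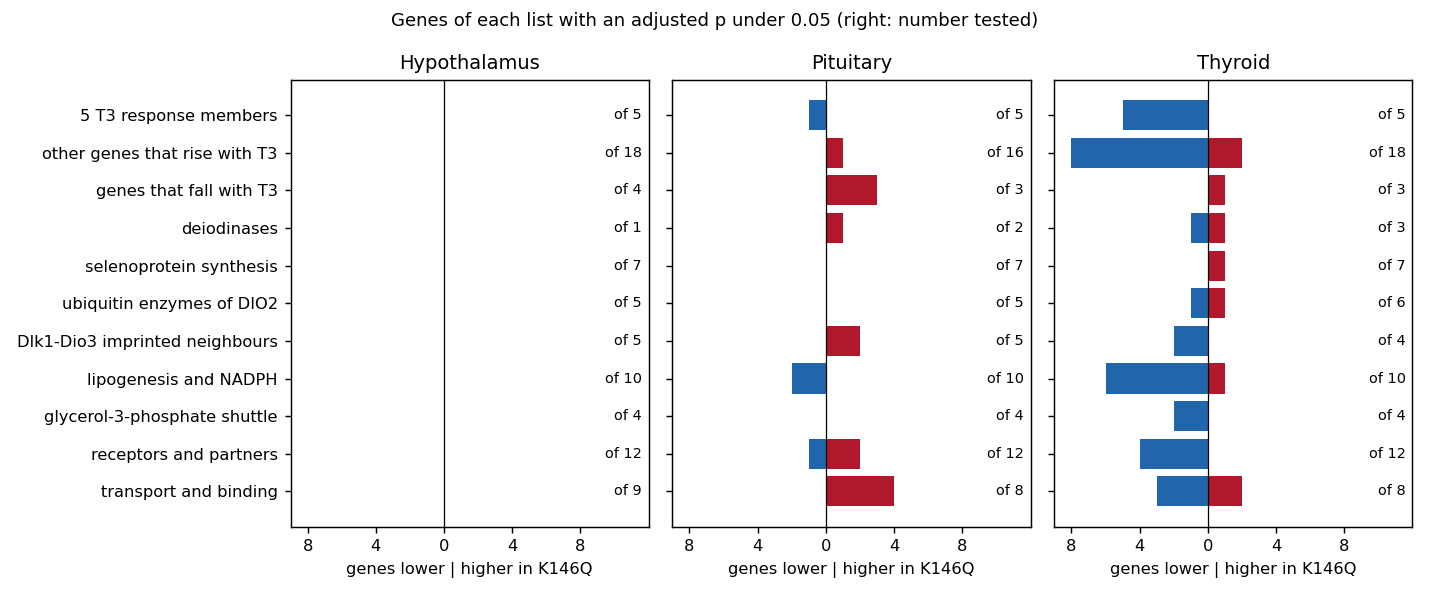
Bars give the number of genes of each list that passed an adjusted p of 0.05, to the left in blue if lower and to the right in red if higher in K146Q mice, with the number tested at the right edge. The hypothalamus panel has no bars, the longest bar in pituitary is that of 4 transport and binding genes, and in thyroid 5 of 5 T3 response members and 8 of 18 other T3-raised genes lie to the left.

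Whether the genotype difference itself differed between tissues was tested with all 18 libraries. Between pituitary and hypothalamus it differed for 1 of the 8 genes, against 3.24% of 17140 genes. That gene was Dio2, whose log2 difference was 2.80 larger in pituitary (limma, adjusted p = 5.56e-06). For Hr the contrast just missed the threshold (-0.94, standard error 0.25, adjusted p = 0.0514). With the mouse number as a block, as the tissues appear to come from the same animals, it passed (adjusted p = 0.0311), and it also passed without K146Q mouse 83 (-1.20, adjusted p = 0.00612).

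Between thyroid and hypothalamus the genotype difference differed for 7 of the 8 genes, against 30.8% of all genes, with Dio1 the exception. Dio3 is 1 of the 7 although it was at 0 to 5 reads in hypothalamus, and it entered this test through its thyroid libraries, so its contrast rests mainly on its thyroid difference. The contrasts were -3.19 for Thrsp, 2.07 for Dio3, -0.88 for Klf9, -0.85 for Hr, -0.73 for Dio2, -0.50 for Me1 and -0.39 for Gpd2, each past the threshold by limma (adjusted p = 1.24e-09 to 0.0460). The Dio3 value ran from 1.57 to 3.11 over the other settings. Thrsp, Dio3 and Klf9 passed with each mouse left out of all tissues in turn. Dio2, Hr and Me1 passed in 3 of the 6 omissions and Gpd2 in 2, with adjusted p up to 0.177, 0.112, 0.108 and 0.255. The Gpd2 call was also lost with no filter (0.0559), with median-of-ratios rescaling (0.0511) and with no variance trend (0.0683). The count fell to 3 of 8 without K146Q mouse 62 and to 4 without K146Q mouse 60.

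Between thyroid and pituitary it differed for 5 of the 8 genes, against 33.8% of all genes. Dio2 differed most, by -3.52 (adjusted p = 1.60e-08 by limma), since it was higher in every K146Q pituitary and lower in every K146Q thyroid than in the WT mice. Thrsp (-3.19), Klf9 (-0.65) and Me1 (-0.54) also differed. So did Dio3 (1.76, and 1.39 to 2.31 over the other settings), which at 1 to 7 reads in pituitary again rests on its thyroid libraries. Me1 was lost without WT mouse 43 or K146Q mouse 62 (adjusted p = 0.0552 and 0.0511). For Hr, which fell in both glands, the contrast was 0.09 with a 95% confidence interval of -0.44 to 0.62, wide enough to allow a difference of either sign. For Gpd2 it was -0.15 (interval -0.44 to 0.15).

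For each gene the 3 genes with the most similar log2 signal over the 18 libraries were listed among genes with a mean signal of at least 1. These libraries share tissue and genotype, so tissue differences dominate the correlations. For Dio2 they were Chuk (Pearson r = 0.982), Tshb (0.978) and Prss28 (0.973), and for Dio1 Lrp2 (0.998), Kcnj15 (0.997) and Piezo1 (0.997). Thrsp was most like Cryz (0.982), H2-Q10 (0.975) and C330006A16Rik (0.965), and Klf9 most like Plin5 (0.953), Tbc1d9b (0.946) and Ddt (0.945). Dio3 was followed most closely by Agpat4 (0.967), Khk (0.964) and Heatr1 (0.959), Me1 by Abca3, Afap1l1 (both 0.994) and Slc41a2 (0.993), and Gpd2 by Ust (0.995), Mid1ip1 (0.990) and Tmem63a (0.987). Hr had the weakest likeness, and the genes named for it are Zfp874b (0.867) and Atg4b (0.865). Among the 8 genes themselves the highest correlation was that of Dio1 with Me1 (0.917) and the lowest that of Dio2 with Gpd2 (-0.876).

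All 8 genes are protein-coding in GENCODE M21 (GRCm38). Dio2 lies on chromosome 12 from 90724552 to 90738438 on the minus strand and Dio3 on the same chromosome from 110279068 to 110281097 on the plus strand, in 1 exonic block. Thrsp lies on chromosome 7 from 97412938 to 97417730 (minus), Dio1 on chromosome 4 from 107291465 to 107307169 (minus), Hr on chromosome 14 from 70552212 to 70573548 (plus) and Klf9 on chromosome 19 from 23141226 to 23168134 (plus). Me1 is on chromosome 9 from 86581371 to 86695953 (minus), where an antisense gene, A330041J22Rik, overlaps it, and Gpd2 on chromosome 2 from 57237635 to 57370719 (plus). Genes on the opposite strand also overlap Dio2 (Gm26512) and Gpd2 (A930012O16Rik and Gm13535), and these have no values of their own. The sources used here do not say whether counting used strand, so reads of Me1, Dio2 and Gpd2 and of the genes opposite them may not be told apart.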

How the data were processed

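The data were RNA-Seq libraries of 3 tissues, each from 3 WT and 3 K146Q mice. Per the labels, the authors used bcl2fastq 2.17, Bowtie2 2.1.0 and RSEM 1.2.15 with mm10, and deposited a normalized signal per gene and library. In every library 100% of the values were multiples of the signal of a single read, to within 0.05 reads, which gave back whole reads. Column totals differed (896894 to about 1269760), so the unit was read as signal, and the test planned for CPM was kept. The authors' own fold changes, p-values and FDR were not used.

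Limma 3.58.1 (R 4.3.3) was applied to log2(signal + 0.5) with a variance trend, in genes at 0.5 or more in at least 3 libraries, each tissue alone, or all 18 libraries for comparisons between tissues. EdgeR 4.0.16 on the recovered reads called 0, 1530 and 5640 genes in hypothalamus, pituitary and thyroid, and DESeq2 1.42.0 called 9, 1808 and 5760. The scripts were tested on simulated data. In the hypothalamus and pituitary files, 27 symbols had become dates and stayed out of comparisons between tissues. Replicates were separate mice, and the genotypes share no mouse number within a tissue. Across tissues the numbers recur, and the design text has tissues dissected from 3 mice of each genotype, so same-numbered libraries were read as 1 animal. Their deviations from group means correlated at -0.03 to 0.17 over 18 pairs (median 0.08), against a median of -0.03 for other pairs. The main fits across tissues did not use this pairing and treated the 18 libraries as independent. The mouse number entered only as the block of an alternative setting.

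Promoters came from RefSeq (GRCm38.p6) and gene models from GENCODE M21. Named list genes are at most the 3 largest called changes in each direction. A few genes that this rule or the likeness rule would name are not reported here. The members and lists were chosen with earlier results of these data known.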

Additional observations from a re-analysis of the deposited data

Results flagged for a closer look

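By limma on all 18 libraries, the contrast of genotype differences between tissues passed the threshold for 7 of the 8 genes, Dio3 included. These 13 contrasts are given here because of that test. Dio3 was below the filter in hypothalamus and in pituitary when each was tested alone, and it entered this fit through its thyroid libraries. Its contrasts rest mainly on its thyroid difference and do not show that its genotype difference differs between tissues. Between pituitary and hypothalamus, where 3.24% of the 17140 genes tested differed, Dio2 differed by 2.80 (adjusted p = 5.56e-06).

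Between thyroid and hypothalamus, the contrasts were -0.73 for Dio2 (adjusted p = 0.0305), 2.07 for Dio3 (0.000133), -0.85 for Hr (0.0162), -0.88 for Klf9 (1.03e-05), -3.19 for Thrsp (1.24e-09), -0.50 for Me1 (0.0167) and -0.39 for Gpd2 (0.0460). Over all genes 30.8% differed. Dio2, Hr and Me1 passed in 3 of the 6 fits with a mouse left out and Gpd2 in 2. Dio3 was at 0 to 5 reads in hypothalamus.

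Between thyroid and pituitary, they were -3.52 for Dio2 (adjusted p = 1.60e-08 by limma), 1.76 for Dio3 (0.000483), -0.65 for Klf9 (0.000167), -3.19 for Thrsp (1.08e-09) and -0.54 for Me1 (0.0103). Over all genes 33.8% differed. Me1 passed in 4 of the 6 fits with a mouse left out, and Dio3 was at 1 to 7 reads in pituitary. The 3 sets share libraries, so they are not independent of each other.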

How the results depend on the processing

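No member was called in the hypothalamus under any setting, while genes called there were 9 by DESeq2 and 0 to 6 with a mouse left out (6 without K146Q mouse 83, 1 without WT mouse 43). With a mouse left out, members called ranged from 1 to 2 in pituitary and from 4 to 8 in thyroid, and genes called from 625 to 1345 and from 3602 to 5106. The lowest were without K146Q mouse 60 in pituitary, where K146Q mouse 62 also mattered (752), and without K146Q mouse 62 in thyroid. For the genotype difference between tissues they ranged from 1 to 2 (pituitary against hypothalamus), 3 to 7 (thyroid against hypothalamus) and 4 to 5 (thyroid against pituitary), and for WT tissues 5 to 6, 6 to 7 and 6 to 8. The members that differed between pituitary and hypothalamus were 2 in place of 1 under pseudocount 1, median-of-ratios rescaling, quantile normalization, totals without the 10 highest genes and the replicate block. The block, which pairs tissues by mouse number, gave Hr this second call and ended that of Dio3 between WT thyroid and pituitary, and it changed no other call of a member.

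Signs turned only for differences that had not passed. Under pseudocount 0.1 the genotype contrasts of Dio1 were 0.0707 (pituitary minus hypothalamus), 0.0781 (thyroid minus hypothalamus) and 0.00741 (thyroid minus pituitary). Under totals without the 10 highest genes, Me1 had -0.00676 in pituitary and -0.0254 for pituitary minus hypothalamus, and between WT pituitary and WT hypothalamus Dio3 had 0.0100 and Klf9 0.133. Quantile normalization gave 0.00150 and 0.0952 for the same WT differences, whose Dio3 value lay between -0.168 and 0.0116 with a mouse left out. In hypothalamus, mouse omissions put Klf9 between -0.0180 and 0.0968 and Me1 between -0.0434 and 0.0797, and in pituitary Me1 lay between -0.000508 and 0.132. For pituitary minus hypothalamus they put Dio1 between -0.345 and 0.265, Thrsp between -0.0715 and 0.0854 and Me1 between -0.0630 and 0.129. For thyroid minus hypothalamus Dio1 lay between -0.216 and 0.0556, and for thyroid minus pituitary Dio1 lay between -0.209 and 0.133 and Hr between -0.146 and 0.289. Over the single genes, 960 alternative values kept direction and side of the threshold, 43 lost a call, 14 gained one and 26 turned sign, mouse omissions included. The cause was not tested. The low counts of Dio3, and of Dio1 outside the thyroid, limit what could be seen.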
